A study of Homo sapiens with 16 samples.

Results

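The genes described were 9 of the 32285 measured, namely Tcf7, Lef1, Tox, Tbx21, Eomes, Foxp3, Ikzf2, Bcl6 and Il7r. They are known as genes that mark T cell states, and the list does not rest on a threshold in these cells. All but Il7r, a cytokine receptor, encode transcription factors. Their raw UMI counts (UMI, unique molecular identifier, one count per captured RNA molecule) were summed over the cells of each deposited cell label and written as counts per 1000000 UMIs of that label (CPM). The labels read were the T cell labels CD4_Tcm-TCF7 (central memory, Tcm), CD4_Treg-FOXP3 (regulatory, Treg), CD8_Tn-CCR7 (naive CD8, CD8 Tn), Tgd (gamma delta) and Tprf-MKI67 (proliferating, Tprf), together with NK.cells (natural killer, NK). The 4 macrophage labels summed gave the background level, since most of these factors are not known as macrophage genes.

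The cells came from mammary tumors grown from mouse-derived syngeneic transplants, tumor pieces carried from mouse to mouse, placed in the mammary fat pad of female FVB mice obtained at 6 weeks of age. LPA1-T22 (T22) was the model sensitive to the PARP inhibitor olaparib and LPA1-T127 (T127) the resistant one. In short-term experiments, T22 tumors (4 pools) and T127 tumors (4 pools) were given vehicle or olaparib at 50 mg/kg by mouth daily for 4 or 8 days. In the long-term experiment (8 pools), T22 and T127 tumors were treated for 20 days. Their hosts carried either the same model in both mammary pads (single strain) or T22 and T127 in opposite pads. The pools are titled as tumors with or without olaparib, another label gives olaparib for every pool, and no file used here ties a cell to its tumor, so vehicle and olaparib were not compared. Nothing in the labels or files says which tumors each pool held, so pools could not be taken as separate animals, each experiment counted as 1 sample and no p-value was computed. The 95% intervals given are exact and cover the counting of UMIs or cells only, and the range over pools is given as the spread. Splits of cells within a label were summed over pools and carry no such range. Between experiments, the tumor model, the length of treatment and the mix of tumors cannot be told apart.

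Tcf7 encodes TCF1 and Lef1 its relative LEF1, DNA-binding partners of beta-catenin that are high in naive and memory T cells and decline as effector cells form. Tbx21 (T-bet) and Eomes drive the cytotoxic programs of NK and CD8 T cells, Foxp3 defines regulatory T cells, in which Ikzf2 (Helios) is often high, and Tox is known from chronically stimulated T cells. Bcl6 is the repressor that shapes follicular helper T cells, and Il7r encodes the receptor chain through which T cells take up the survival signal of interleukin-7.

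After shared barcodes were resolved, the 6 lymphoid labels held 1839 long-term, 4698 short-term T22 and 530 short-term T127 cells, which were 7.15%, 31.1% and 6.62% of the cells kept. Their median UMIs per cell were 3678, 6932 and 3714. Barcodes common to a pair of pools numbered 3939 (long-term pools 1 and 2), 1082 (2 and 3) and 987 (1 and 3), against 0 to 11 for each of the other 117 pairs. The deepest copy was kept and 5122 copies were left out. Of these, 1588 carried the same label as the kept copy (59 of 100 for copies of lymphoid cells). Labels with fewer than 50 cells were not compared (Treg in short-term T22 with 5 cells, Tprf in the long-term experiment with 21, and CD8 Tn, Tgd and Tprf in short-term T127 with 18, 17 and 1). The deposited labels had been named from expression in these same cells, with Tcf among the markers of Tcm and Foxp3 among those of Treg, so differences between labels are descriptions. The Tcm label did not behave as a pure CD4 population: Cd4 was at 67.6, 47.8 and 108 CPM in the long-term, T22 and T127 experiments beside Cd8b1 at 130, 73.7 and 135 CPM and the NK receptor gene Ncr1 at 185, 78.9 and 278 CPM. The CD8 Tn label held Cd8b1 at 850 and 959 CPM with Cd4 at 0 and 2.57 CPM (long-term and T22), and Cd4 in the Treg label was at 120 and 326 CPM (long-term and T127). Although CD8 Tn is named naive, 4 NK marker genes summed to 1969 and 1605 CPM there (long-term and T22), against 870 and 777 CPM in Tcm. Its 2 proliferation genes summed to 215 and 707 CPM, against 319 and 326 CPM in Tcm. The summed level of 6 macrophage markers was 38.0 to 402 CPM in the lymphoid labels with at least 50 cells, against 18683 to 24849 CPM in macrophages. Without the lymphoid cells that held a UMI of Lyz2, C1qa, C1qb or Csf1r (chosen after seeing the data), 14 of 117 levels moved by more than 1 SD over pools. Those named here that moved by over 1.5 times were Il7r in long-term NK (94.4 to 59.5 CPM), Lef1 in long-term NK (24.5 to 16.1 CPM), Eomes in long-term Tgd (52.1 to 34.1 CPM) and Tox in long-term CD8 Tn (36.9 to 23.4 CPM).

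**Figure D1:**
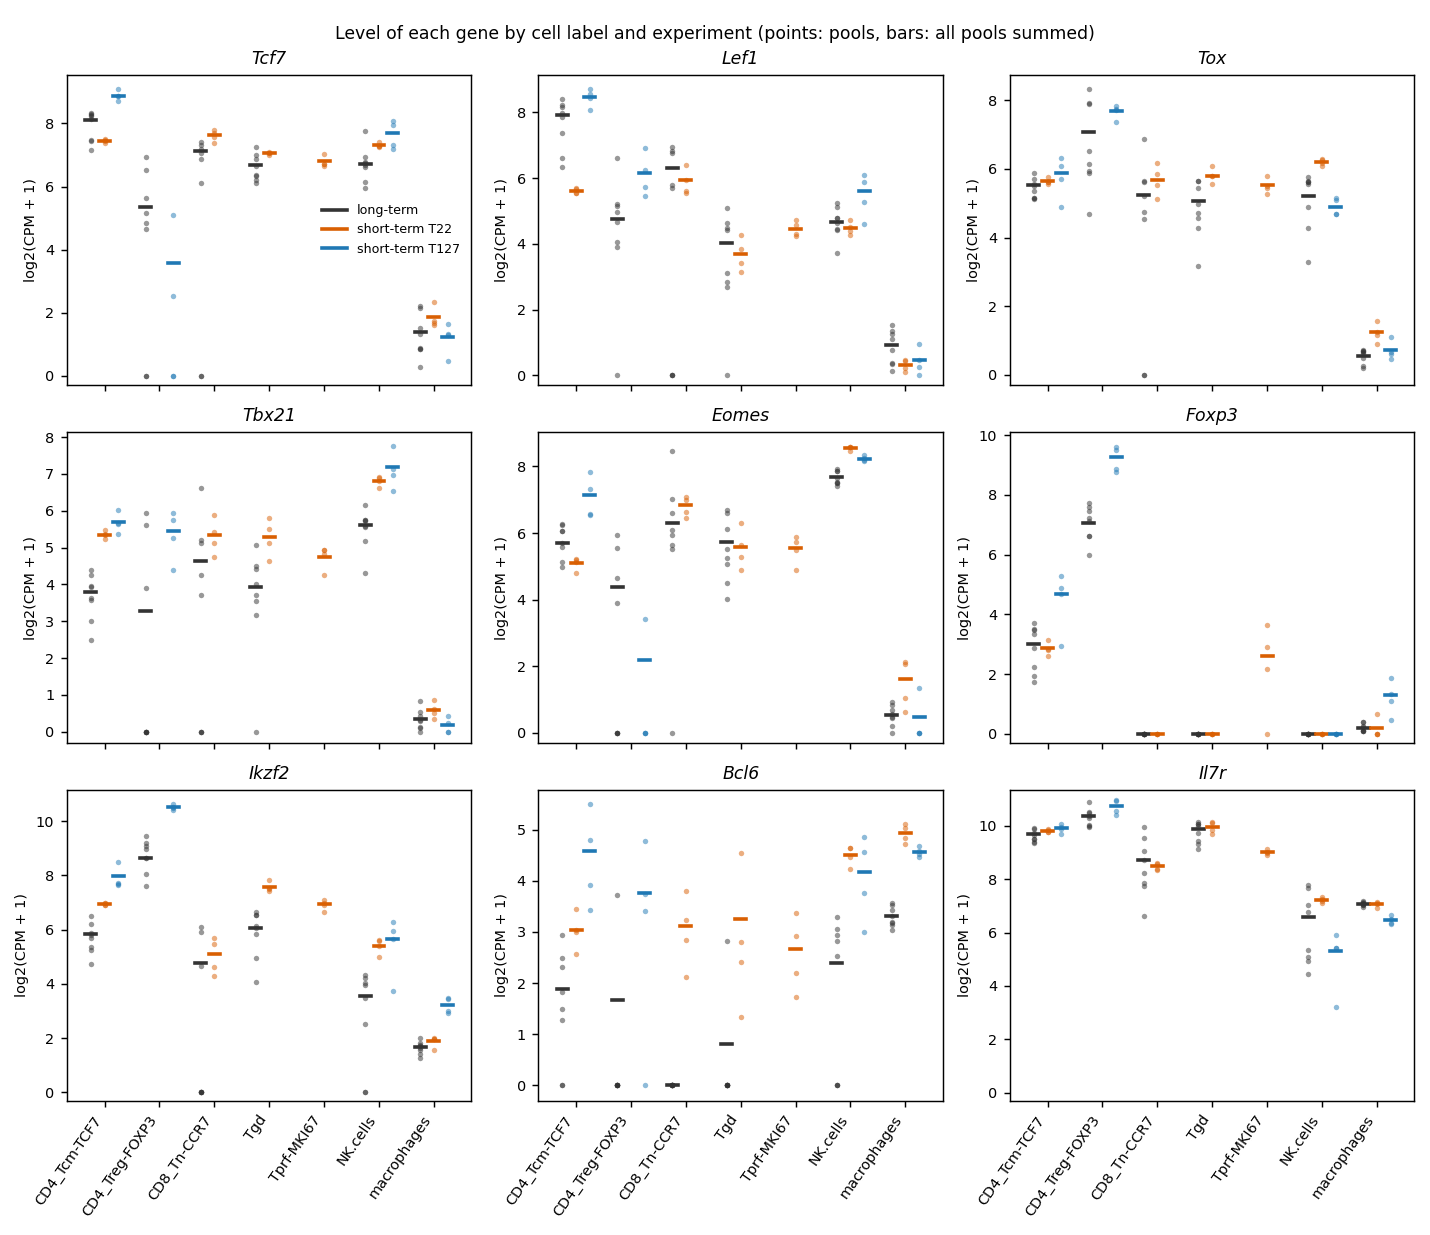
Level of each of the 9 genes, as log2(CPM + 1), in the 6 lymphoid labels and in macrophages, one panel per gene with a color per experiment; points are pools and bars are all pools summed. Foxp3 and Ikzf2 stand highest in Treg, Tbx21 and Eomes in NK, and Bcl6 is not as much as 2-fold above macrophages in any T cell label.

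Most of these genes were at least 2-fold above macrophages in every lymphoid label, on the scale log2(CPM + 1) and among genes at 5 CPM or more in either class. All 9 passed that minimum in Tcm, long-term Treg and Tprf, and 8 did elsewhere, with Foxp3 below it in CD8 Tn, Tgd and NK and Eomes in T127 Treg. In macrophages, Tcf7, Lef1, Tox, Tbx21, Eomes and Foxp3 lay below 5 CPM in each experiment. They could thus enter only through the lymphoid label, so a call as higher was largely built in and the counts are descriptions only. Foxp3 entered in T22 Tprf at 5.03 CPM, and the Tprf count was 7 or 8 with a pool left out. In Tcm, 8 of the 9 were higher by this rule in each experiment, where 15.1%, 15.3% and 20.1% of all genes were higher (long-term, T22 and T127). The Treg label had 8 higher in the long-term and 7 in the T127 experiment, with 21.2% and 22.6% of all genes higher. CD8 Tn had 7 in both experiments that held it (16.2% and 13.9% of all genes), Tgd had 7 in both (16.6% and 14.9%) and Tprf had 8 in T22 (19.1%). NK had 6 higher in each experiment (13.3%, 15.1% and 15.6%), and 0 of the 9 were lower in T22 NK, where 16% of all genes were lower. The member that failed was mainly Bcl6, which was at least 2-fold lower than macrophages in long-term and T22 Tcm, CD8 Tn and Tgd, in long-term Treg and in T22 Tprf, where 17.1% to 25.1% of all genes were lower. In the long-term experiment these calls rested on 1 Bcl6 UMI in Treg, 0 in CD8 Tn and 1 in Tgd, counts at the floor. Il7r was lower than macrophages in T127 NK, where 20.4% of all genes were lower.

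Tcf7 was the highest in Tcm in the long-term and T127 experiments and was present in every lymphoid label. In long-term Tcm it was at 274 CPM (95% interval 259 to 291) with pools from 143 through a median of 291 to 321 CPM. In T22 Tcm the 4 pools held 178, 180, 165 and 174 CPM, and in T127 Tcm 469, 471, 546 and 417 CPM. The T127 pools thus lay above all pools of the other experiments, while the T22 pools lay inside the long-term range. CD8 Tn held Tcf7 at 139 and 197 CPM (long-term and T22), Tgd at 103 and 132 CPM, Tprf at 110 CPM in T22, and NK at 105, 158 and 205 CPM (long-term, T22 and T127). The pool ranges of CD8 Tn and Tcm, and of Tcm and NK, overlapped in T22, and long-term Tcm pools overlapped those of CD8 Tn (0 to 171 CPM) and NK (61.6 to 213 CPM), so the order among those labels was not larger than the spread between pools. Treg was the T cell label with the least Tcf7, 39.4 CPM from 18 UMIs in the long-term and 10.8 CPM from 6 UMIs in the T127 experiment. Tcm exceeded Treg by 6.97-fold (4.39 to 11.8) and 43.7-fold (19.9 to 120), the latter resting on those 6 UMIs. Without T127 pool 3, which held 5 of them, the log2 ratio in T127 was 7.02 in place of 5.33. Among long-term cells with at least 1000 detected genes, Tcm held 183 CPM and Treg 42.7 CPM, a smaller contrast. Macrophages held 1.61, 2.67 and 1.37 CPM.

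Lef1 was highest in Tcm in the long-term and T127 experiments, as Tcf7 was. Long-term Tcm held it at 241 CPM (227 to 257; pools 80.3 to 342, median 242), and Tcm exceeded CD8 Tn (78.1 CPM), Treg (26.3 CPM, 12 UMIs), NK (24.5 CPM) and Tgd (15.1 CPM). The long-term Tcm pools overlapped those of CD8 Tn (0 to 122 CPM) and Treg (0 to 96.7 CPM), and the pools of Treg and NK overlapped in both experiments. In T127 Tcm the 4 pools held 419, 269, 343 and 373 CPM, all above the 43.2, 74.3, 120 and 51.5 CPM of the Treg pools. T22 Tcm was far lower, with 45.9, 50.6, 49.7 and 45.5 CPM, and its pools overlapped those of CD8 Tn at 60.4 CPM. Tcm exceeded Treg in Lef1 by 9.19-fold (5.24 to 17.8) in the long-term and 5.02-fold (3.56 to 7.24) in the T127 experiment. Among long-term cells with at least 1000 detected genes, Tcm held 105 CPM and Treg 19.0 CPM (8 UMIs), a smaller contrast. Outside the lymphoid labels, macrophages held 0.239 to 0.907 CPM, and the endothelial label of T22 held 40.2 CPM with pools of 16.4 to 76.9 CPM.

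Lef1 in the Tcm label, and Tcf7 in the long-term and T22 experiments, differed with the number of genes detected per cell, a split made after the values were seen. Of the 1136 long-term Tcm cells, 507 had fewer than 1000 detected genes, and they held Lef1 at 689 CPM against 105 CPM in the other 629 cells. Tcf7 was at 574 and 183 CPM in the same cells, Il7r at 1009 and 769 CPM and Tox at 50.4 and 43.2 CPM. Eomes went the other way, with 6.29 CPM (6 UMIs) in the cells with fewer genes and 64.6 CPM in those with more. The same contrast in T22 (109 and 2329 cells) gave 273 and 45.8 CPM for Lef1 and 362 and 172 CPM for Tcf7, and in T127 (62 and 142 cells) 607 and 305 CPM for Lef1 and 537 (404 to 701) and 460 CPM (405 to 520) for Tcf7, intervals that overlap. Cells with few genes also have few UMIs, and whether depth or cell state set the contrast was not tested.

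Tox was highest in Treg in both experiments with enough Treg cells. Long-term Treg held 134 CPM (102 to 171) with pools from 24.6 through a median of 79.8 to 322 CPM, and the T127 Treg pools held 216, 211, 226 and 163 CPM. Tcm held 44.8, 49.2 and 58.4 CPM (long-term, T22 and T127), with pools of 33.6 to 58.4, 46.0 to 53.7 and 28.4 to 78.5 CPM. Treg exceeded Tcm by 2.98-fold (2.19 to 4.00) in the long-term experiment, in 7 of 8 pools, and by 3.54-fold (2.44 to 5.26) in T127, in 4 of 4 pools with no overlap. In the long-term experiment Tox varied little among the remaining labels, with CD8 Tn, Tgd and NK between 32.5 and 36.9 CPM and overlapping pools. In T22, the NK pools (67.2 to 76.8 CPM, 72.7 CPM summed) lay above those of Tgd (46.3 to 66.8) but overlapped those of CD8 Tn (34.2 to 71.1). T127 NK held 29.0 CPM (pools 24.5 to 34.3). Tox was at 0.473 to 1.37 CPM in macrophages but not limited to lymphocytes. The malignant label Malign_2 held 40.8 CPM (pools 35.1 to 48.2) in the long-term and 54.6 CPM (49.7 to 57.2) in the T22 experiment, close to the Tcm level. In those cells there were 7.87 and 7.73 Tox UMIs per Tcf7 UMI, against 0.163 and 0.282 in Tcm. The 6 lymphoid labels held 25.1% and 43.0% of all Tox UMIs in these experiments and 90.7% in T127.

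Eomes and Tbx21, the factors of cytotoxic lymphocytes, were highest in NK. Eomes in NK was at 205 CPM (185 to 227) in the long-term experiment (pools 171 to 241, median 192), at 352, 386, 382 and 384 CPM in the T22 pools and at 305, 284, 324 and 291 CPM in the T127 pools. CD8 Tn held 78.1 and 113 CPM (long-term and T22), Tgd 52.1 and 47.1 CPM and Tprf 45.9 CPM in T22. NK exceeded CD8 Tn by 2.63-fold (1.87 to 3.81) in the long-term experiment, in 7 of 8 pools, and by 3.34-fold (2.94 to 3.79) in T22, in 4 of 4 pools. Long-term CD8 Tn had 1 to 19 cells per pool, so that tally of 8 pools rests on few cells. Tcm carried 51.0 and 33.1 CPM in the long-term and T22 experiments and 92.4, 229, 159 and 93.2 CPM in the T127 pools. Treg carried the least of the lymphoid labels, 19.7 CPM (9 UMIs) and 3.60 CPM (2 UMIs), and macrophages 0.377 to 2.04 CPM.

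Tbx21 in NK was at 48.0 CPM in the long-term experiment (pools 19.0 to 69.8, median 49.3), at 118, 97.1, 119 and 112 CPM in the T22 pools and at 141, 125, 91.3 and 214 CPM in the T127 pools. NK was therefore higher in each short-term pool than in any long-term pool. The NK level exceeded that of CD8 Tn by 2.01-fold (1.07 to 4.17) in the long-term experiment, in 7 of 8 pools, and by 2.80-fold (2.26 to 3.50) in T22, in 4 of 4. Long-term CD8 Tn held 11 Tbx21 UMIs, with 1 to 19 cells per pool, so its tally of pools rests on few counts. Below NK the order was loose: Tcm, CD8 Tn and Tgd held 40.0, 39.8 and 38.0 CPM in T22, with overlapping pools. Treg held Tbx21 at 8.76 CPM in the long-term experiment and at 43.2 CPM in T127. Across the whole NK to CD8 Tn contrast, Eomes was the member at least 2-fold higher in the long-term experiment (13.5% of all genes were higher), Tbx21 missing the threshold on the log2(CPM + 1) scale, with Lef1, Ikzf2 and Il7r lower (8.2% lower). Without pool 8, Ikzf2 was at 14.5 CPM in long-term CD8 Tn and 12.6 CPM in NK, which is less than 2-fold apart. In T22, Tbx21, Eomes and Bcl6 were higher (8.2%), and Lef1 and Il7r lower (2.9%).

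Within the Tcm label, cells with a Cd4 UMI held less Eomes than cells with a Cd8 UMI, in a split also made after the values were seen. Cells with a Cd4 UMI and none of Cd8a or Cd8b1 held Eomes at 4.50 CPM in the long-term experiment against 51.5 CPM in cells with a Cd8a or Cd8b1 UMI and no Cd4 (201 and 196 cells), a ratio of 0.0873 (0.0172 to 0.276). The T22 values were 8.38 and 63.1 CPM (408 and 353 cells), and in T127 there were 0 Eomes UMIs in 45 Cd4 cells against 158 CPM from 19 UMIs in 37 Cd8 cells. Foxp3 was at 10.5 and 2.79 CPM in the long-term experiment, on 7 and 2 UMIs, a ratio of 3.77 whose interval (0.717 to 37.2) includes no difference. It was higher in the Cd4 cells of T22, at 24.7 and 0.765 CPM, and of T127, at 89.4 (9 UMIs) and 0 CPM. Tcf7 differed little between the same cells, with Cd4 to Cd8 ratios of 1.21 (0.996 to 1.47), 1.20 and 1.14, and Lef1 had ratios of 1.09, 1.29 and 1.31. Most Tcm cells, 730, 1665 and 121, had no UMI of the 3 coreceptor genes and could not be placed. They held most Eomes UMIs of the label, at 62.6, 32.1 and 168 CPM, and its Ncr1, at 281, 111 and 423 CPM against 0 to 16.4 CPM in the Cd4 and Cd8 cells.

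Foxp3 was highest in Treg and not seen in most other lymphoid labels. Long-term Treg held 131 CPM (100 to 169; pools 62.6 to 211, median 145) and the T127 Treg pools held 783, 731, 432 and 464 CPM. Tcm followed with 7.11, 6.27 and 24.6 CPM (long-term, T22 and T127), and T22 Tprf held 5.03 CPM. Treg exceeded Tcm by 18.5-fold (11.7 to 29.9) and 24.9-fold (15.1 to 44.1), in all 8 and all 4 pools, a contrast that the label's definition by Foxp3 builds in. Among T127 cells with at least 1000 detected genes, Tcm held 9.09 CPM (5 UMIs) and Treg 609 CPM, a larger contrast. CD8 Tn, Tgd and NK had 0 Foxp3 UMIs in each experiment where they were compared, and the tightest upper 95% bound was 0.398 CPM in T22 NK. Macrophages held 0.152 to 1.46 CPM, with the upper end in T127, where the proliferating macrophage label was at 4.59 CPM.

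Ikzf2 was also highest in Treg. Long-term Treg held 403 CPM (347 to 465; pools 194 to 692, median 450) and the T127 Treg pools 1575, 1487, 1449 and 1366 CPM. Every Treg pool lay above every Tcm pool of its experiment, and Treg exceeded Tcm by 7.24-fold (5.93 to 8.83) and 5.89-fold (4.97 to 7.01). Outside Treg, Ikzf2 was led by Tgd, at 66.5 CPM in the long-term experiment, with pools overlapping those of Tcm at 55.6 CPM, and at 190 CPM in the T22 experiment, where the Tgd pools (172 to 225) lay above the Tcm pools (118 to 126). T127 Tcm held 199, 209, 203 and 358 CPM, with pool 4 well above the others. Ikzf2 was low in CD8 Tn (26.0 and 33.0 CPM) and NK (10.7, 41.2 and 50.0 CPM). Macrophages held 2.20, 2.71 and 8.39 CPM, and in T127 the plasmacytoid dendritic label (pDC) held 74.2 CPM and the malignant labels Malign_0 and Malign_1 held 29.2 and 24.9 CPM. Over the Treg to Tcm contrast, Tox, Foxp3 and Ikzf2 were at least 2-fold higher in both experiments (10% and 16.8% of all genes were higher) and Tcf7, Lef1 and Eomes lower (8.72% and 10.9%).

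Treg cells with a Foxp3 UMI carried more Ikzf2 and Il7r and less Tcf7 than Treg cells without one. This split was made after the values were seen, and a cell without a Foxp3 UMI may still express the gene. In the long-term experiment (45 and 68 cells), Ikzf2 was at 512 and 326 CPM, a ratio of 1.57 (1.16 to 2.12), and Il7r at 1535 and 1167 CPM (1.31, 1.12 to 1.55). Tcf7 was at 5.27 CPM from 1 UMI and at 63.6 CPM from 17 UMIs (0.0829, 0.00198 to 0.529). In T127 (111 and 38 cells), Ikzf2 was at 1633 and 1034 CPM (1.58, 1.32 to 1.90), Il7r at 1820 and 1425 CPM (1.28, 1.09 to 1.5) and Tcf7 at 0 UMIs and 43.4 CPM (6 UMIs). Most of those Tcf7 UMIs came from a single pool, as given above, so the T127 contrast in Tcf7 rests largely on that pool. Tox was higher in cells with a Foxp3 UMI by 1.46-fold (0.853 to 2.49) and 1.40-fold (0.872 to 2.34), intervals that include no difference. The checkpoint receptor gene Ctla4, a known Treg gene, was at 1503 and 662 CPM in the long-term and 1875 and 1461 CPM in the T127 experiment. Icos had ratios of 1.29 (1.07 to 1.55) and 1.49 (1.30 to 1.71). The general T cell gene Cd3e was also higher with a Foxp3 UMI, at 1218 and 861 CPM (long-term) and 824 and 629 CPM (T127). The Il7r difference was therefore not set apart from that of a general T cell gene. Cd4 was at 164 and 89.8 CPM in the long-term experiment but at 309 and 376 CPM in T127. Other genes known from Treg cells did not all follow. Il2ra, the high-affinity interleukin-2 receptor chain, had ratios of 1.13 (0.773 to 1.65) and 1.30 (1.07 to 1.59), and Il1rl1, the interleukin-33 receptor, gave 20 of 189587 UMIs and 34 of 267267 UMIs in the long-term experiment and 474 and 506 CPM in T127. Areg, the repair factor amphiregulin, was at 1709 and 651 CPM in the long-term experiment but at 642 and 2069 CPM in T127. The ratios for Ikzf2 and Il7r thus lay close together in both experiments.

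**Figure D2:**
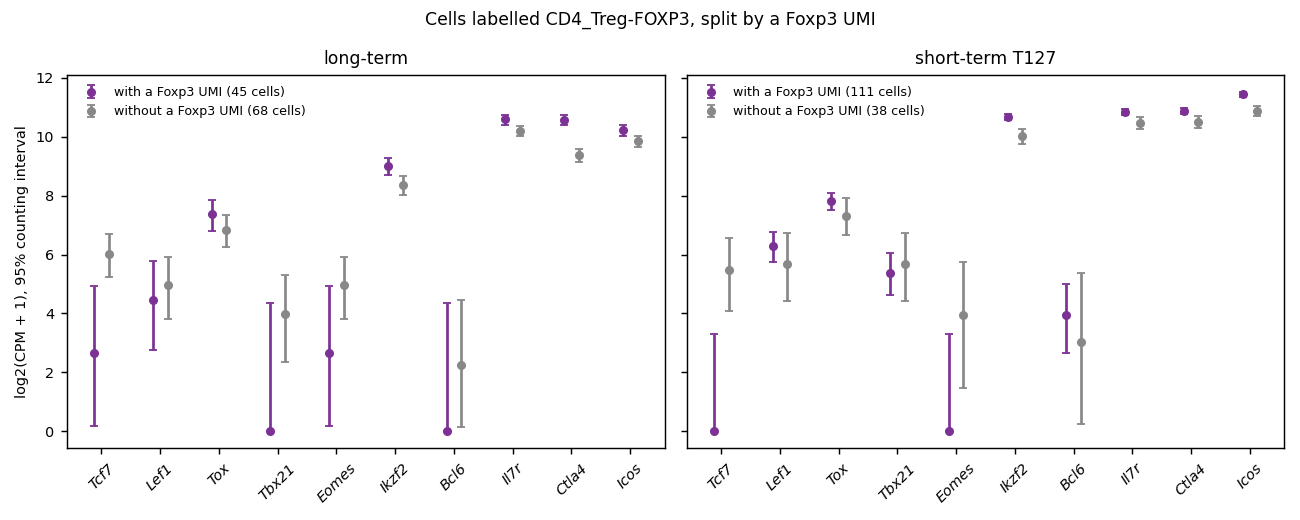
Level, as log2(CPM + 1) with 95% counting intervals, of the other members and of Ctla4 and Icos in Treg cells with and without a Foxp3 UMI (45 and 68 long-term cells, 111 and 38 short-term T127 cells). Ikzf2, Il7r, Ctla4 and Icos lie higher in the cells with a Foxp3 UMI in both experiments, and Tcf7 lies lower.

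The few Tcm cells with a Foxp3 UMI (23 long-term, 37 T22 and 9 T127) differed from the other Tcm cells in the same direction for Ikzf2, Tcf7 and Ctla4, while Il7r had ratios of 1.18 (0.947 to 1.45), 1.30 (1.13 to 1.49) and 0.911 (0.552 to 1.42). Their Ikzf2 was at 458 against 46.2 CPM, 919 against 113 CPM and 2477 against 172 CPM. Tcf7 was at 53.3 against 280 CPM, 31.9 against 176 CPM and 0 against 489 CPM, and there were 0 Eomes UMIs in these cells in all 3 experiments. Tox was 1.69-fold (0.670 to 3.56), 2.64-fold (1.68 to 3.96) and 5.21-fold (1.78 to 12.6) the level of the other cells, and the long-term interval includes no difference. Ctla4 was at 490 against 43.9 CPM, 1403 against 34.8 CPM and 1814 against 65.3 CPM. The T22 experiment, whose Treg label had 5 cells, thus held 37 cells with a Foxp3 UMI under the Tcm label.

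Bcl6 was higher in the myeloid labels than in the T cell labels of the long-term and T22 experiments. Macrophages held 8.96, 29.7 and 22.7 CPM (long-term, T22 and T127), with T22 pools of 25.4 to 33.7 CPM and T127 pools of 21.3 to 24.6 CPM. The monocyte label CD14-IL1B held 14.7, 58.6 and 63.2 CPM, and CD14-PF4 held 9.5, 74.0 and 20.6 CPM, above macrophages mainly in T22. Tcm held 2.70 CPM (11 UMIs) and 7.24 CPM (119 UMIs) in the long-term and T22 experiments, which were 0.301 (0.150 to 0.541) and 0.244 (0.200 to 0.294) of the macrophage level. In T127 Tcm the 15 Bcl6 UMIs gave 14.2, 26.9, 44.5 and 9.81 CPM in the 4 pools, above macrophages in 2 pools and below in 2, with a ratio of 1.02 (0.565 to 1.70). NK held 4.27, 21.7 and 17 CPM. Long-term CD8 Tn had 0 Bcl6 UMIs and Tgd 1, and T22 CD8 Tn and Tgd held 7.71 and 8.48 CPM. The lymphoid labels held 0.930%, 13.3% and 1.52% of all Bcl6 UMIs. In T127 these labels held 2458291 UMIs of all genes, where each of the 4 pools held 49690430 or more over all labels. The small share in T127 thus does not show a low level there. There were 5.58, 11.1 and 16.6 Bcl6 UMIs per Tcf7 UMI in macrophages and 0.00982, 0.0416 and 0.0489 in Tcm.

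Il7r was high in every T cell label and present in the myeloid labels. Long-term Treg held 1320 CPM (1217 to 1430; pools 986 to 1904, median 1279), and the T127 Treg pools held 1993, 1970, 1489 and 1366 CPM. Tcm held 825, 902 and 968 CPM with pools of 651 to 959, 866 to 954 and 835 to 1087 CPM. The Tcm level was 0.63 (0.573 to 0.683) of the Treg level in the long-term and 0.562 (0.508 to 0.623) in the T127 experiment, lower in 8 of 8 and 4 of 4 pools. Regulatory T cells are usually described as low for the surface product of Il7r, and what is given here is its RNA. Tgd held 940 and 992 CPM (long-term and T22), CD8 Tn 416 and 357 CPM and T22 Tprf 516 CPM, and in T22 the pools of Tcm, Tprf and CD8 Tn did not overlap in that order.

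NK held the least Il7r of the lymphoid labels, 94.4, 149 and 39.0 CPM, beside macrophage levels of 135, 132 and 87.9 CPM. The long-term NK pools spanned 20.5 to 222 CPM, on both sides of the macrophage level, with 31.0 CPM in pools 1 to 4 and 153 CPM in pools 5 to 8. The T22 NK pools spanned 137 to 160 CPM and the T127 NK pools 8.34 to 59.6 CPM. Plasmacytoid dendritic cells (pDC) held 647 CPM (pools 494 to 800) in the long-term and 838 CPM (727 to 1056) in the T127 experiment, a level that reached into the Tcm range. Macrophages held 54.1%, 19.3% and 38.4% of all Il7r UMIs and the lymphoid labels 22.7%, 74.1% and 35.4%. There were 83.8, 49.6 and 64.3 Il7r UMIs per Tcf7 UMI in macrophages and 60.1 and 126 in pDC (long-term and T127). Tcm had 3.01, 5.18 and 2.05, while Treg held 603 Il7r and 18 Tcf7 UMIs (long-term) and 957 and 6 (T127). The source of the myeloid Il7r counts was not tested.

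**Figure D3:**
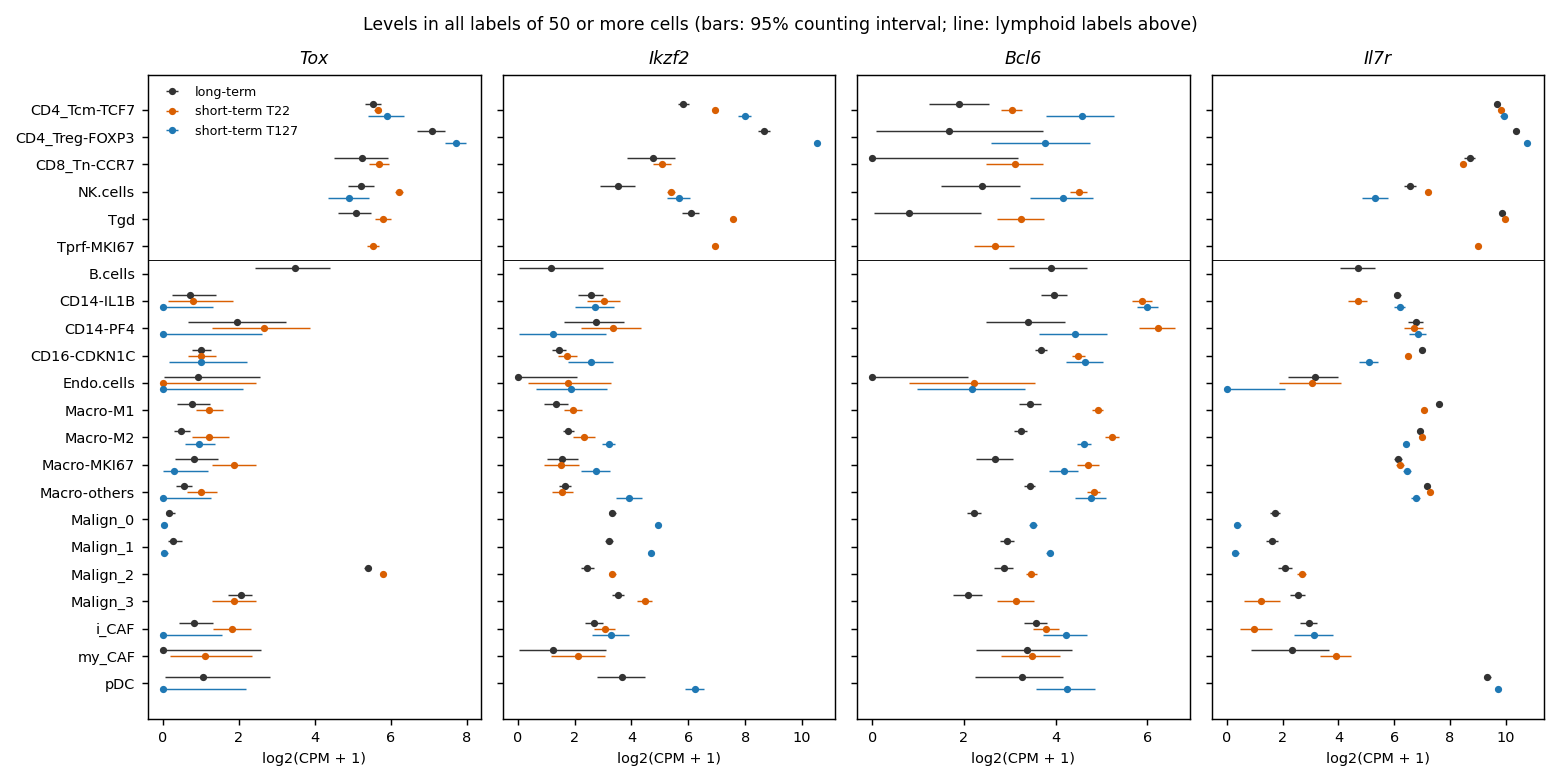
Level of Tox, Ikzf2, Bcl6 and Il7r, as log2(CPM + 1), in every deposited label with at least 50 cells, one color per experiment, bars showing 95% counting intervals and the lymphoid labels above the line. Outside the lymphoid labels, Tox is high in Malign_2, Ikzf2 in T127 pDC, Bcl6 in CD14-IL1B and Il7r in pDC and the macrophage labels.

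The experiments were set side by side label by label, beginning with Tcm. T22 Tcm was higher than long-term Tcm in Tbx21 (3.08-fold, 2.32 to 4.15) and Ikzf2 (2.20-fold, 1.91 to 2.53), with pool ranges apart, and in Bcl6 (2.69-fold, 1.45 to 5.53; 2.24-fold, 0.917 to 7.1, without cells holding macrophage marker UMIs, and then not called), with pool ranges that overlapped, where 12.9% of all genes were at least 2-fold higher. Lef1 was lower, at 0.199 (0.181 to 0.218) of the long-term level with pool ranges apart, where 4.26% of all genes were lower. Among cells with at least 1000 detected genes, the Lef1 ratio was 0.436 and that of Tcf7 was 0.941 in place of 0.635, and 507 of 1136 long-term but 109 of 2438 T22 Tcm cells had fewer genes. Il7r and Tox had ratios of 1.09 (1.05 to 1.13) and 1.10 (0.933 to 1.29). Against T127 Tcm, 6 of the 9 genes were at least 2-fold lower in T22 (8.49% of all genes) and 0 higher (8.01%). Tcf7 was at 0.369 (0.328 to 0.417) and Lef1 at 0.136 (0.117 to 0.159) of the T127 level, Eomes at 0.237 and Ikzf2 at 0.485, each with pool ranges apart, and Foxp3 at 0.255 and Bcl6 at 0.314 with overlapping ranges. Among cells with at least 1000 genes the Lef1 ratio to T127 was 0.150, while Foxp3 (0.689, 0.286 to 2.17) and Ikzf2 (0.556, 0.462 to 0.673) were no longer 2-fold apart. Ikzf2 also fell short of 2-fold without mitochondrial and ribosomal protein genes (0.506) and without cells holding macrophage marker UMIs (0.52).

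NK cells of T22 were higher than long-term NK cells in Tbx21 (2.32-fold, 1.87 to 2.91), Ikzf2 (3.86-fold) and Bcl6 (5.08-fold, 2.53 to 11.9), and 0 of the 9 were at least 2-fold lower, where 21.4% of all genes were higher and 2.95% lower. Tox in NK was 2.00-fold (1.56 to 2.61) and Eomes 1.83-fold (1.65 to 2.04) higher, both with pool ranges apart. Without cells holding macrophage marker UMIs, Tcf7 (2.09-fold) and Il7r (2.41-fold) were past 2-fold as well. Against T127 NK, those of T22 were higher in Tox (2.51-fold, 1.73 to 3.77) and Il7r (3.81-fold, 2.77 to 5.38), with pool ranges apart (7.72% of all genes higher), and lower in Lef1 at 0.450 of the T127 level with overlapping pools (4.34% lower). Tgd cells of T22 exceeded long-term Tgd cells in Ikzf2 by 2.86-fold (2.28 to 3.62), with pool ranges apart, and in Tbx21 by 2.65-fold (1.72-fold, not called, without cells holding macrophage marker UMIs), with overlap, where 15.2% of all genes were higher. Bcl6 was the other gene called higher, with 1 long-term and 27 T22 UMIs, and 0 of the 9 were lower (4.19% of all genes). In CD8 Tn, Bcl6 alone was called higher in T22 (22% of all genes), with 0 long-term and 18 T22 UMIs, an interval of the ratio that reaches down to 0.868 and so includes no difference, and 0 of the 9 were lower (5.95%).

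T127 Treg exceeded long-term Treg in Foxp3 by 4.67-fold (3.54 to 6.25) and in Ikzf2 by 3.69-fold (3.14 to 4.35), with no T127 pool as low as any long-term pool. Lef1 was higher by 2.67-fold (1.37 to 5.6, 39 and 12 UMIs) and Tbx21 by 4.93-fold (1.69 to 19.6, 24 and 4 UMIs), with overlapping pools. Bcl6 was called at 5.75-fold on 7 and 1 UMIs, with an interval (0.739 to 259) that includes no difference, and was not called without cells holding macrophage marker UMIs (1.85-fold). The 5 of 9 called higher stood against 28.2% of all genes. Tcf7 and Eomes were at 0.274 and 0.183 of the long-term level with overlapping pools (11.2% lower). The Eomes ratio rests on 2 and 9 UMIs and turned over without cells holding macrophage marker UMIs, from a log2 ratio of -2.17 to 2.53. Tox and Il7r differed by 1.55-fold and 1.30-fold. The long-term Treg label was also less marked by Foxp3 itself, with a Foxp3 UMI in 39.8% of 113 cells against 74.5% of 149 cells in T127 at nearly the same median UMIs (3287 and 3245).

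**Figure D4:**
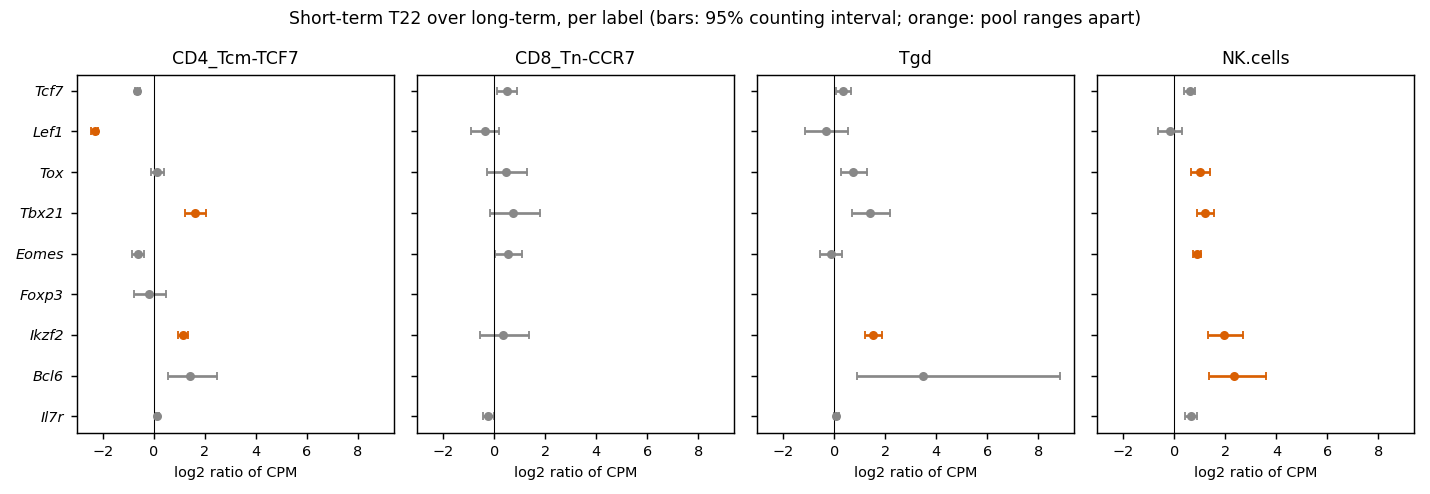
Log2 ratio of the T22 to the long-term level in CPM for each gene in Tcm, CD8 Tn, Tgd and NK, with 95% counting intervals; orange points are genes whose pool ranges did not overlap, and a gene with 0 UMIs in either group has no point. Lef1 in Tcm lies furthest below 0, and Tbx21 and Ikzf2 lie above 0 in Tcm, Tgd and NK.

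Counted as cells with at least 1 UMI after each cell was thinned to 2000 UMIs, with shallower cells left out, the factors ranged from rare to common in their leading labels. Tcf7 was seen in 37.4% of 836 long-term, 26.8% of 2340 T22 and 58.1% of 160 T127 Tcm cells (52.6%, 54.2% and 63.2% unthinned), against 0.271% to 0.643% of macrophages. The order of the experiments for Tcf7 in Tcm was thus that of the CPM. Lef1 was seen in 30.7%, 9.15% and 45% of the same Tcm cells. Foxp3 was seen in 29.5% of 95 long-term and 60.3% of 136 T127 Treg cells, Ikzf2 in 56.8% and 83.8% and Il7r in 77.9% and 87.5%. Foxp3 was seen in 0 of 1191 T22 NK cells, and 3 counts of that total, the limit that a count of 0 allows, are 0.252%, a limit on cells with a UMI and not on cells that express the gene. Eomes was seen in 33.6%, 39.1% and 40.7% of NK cells (59.8%, 61.4% and 65.2% unthinned) and Tbx21 in 11.8%, 19.3% and 22.1%, against 0.0903% to 0.234% and 0% to 0.0903% of macrophages. Thinning left out 300 of 1136, 98 of 2438 and 44 of 204 Tcm cells, and macrophages were deeper, with median UMIs of 10666 to 12993 among the cells that entered.

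Pairs of genes in the same thinned cells were counted against the product of the single shares, as a description. Tcf7 and Lef1 were seen together in 18.1%, 4.57% and 31.9% of Tcm cells (long-term, T22 and T127), above products of 11.5%, 2.45% and 26.2%. The T127 interval (24.7% to 39.7%) includes its product. Foxp3 and Ikzf2 were seen together in 25.3% and 54.4% of Treg cells (long-term and T127), with products of 16.8% and 50.5%, the latter within the T127 interval (45.7% to 63.0%). Tbx21 and Eomes, the pair that leads in NK, were together in 2.86%, 7.81% and 6.43% of NK cells, with products of 3.96%, 7.56% and 9.02%, so their joint share lay on either side of the product. Tcf7 and Il7r in Tcm were at 23.7%, 17.7% and 36.9%, near products of 22.9%, 16.7% and 36.3%. Tcf7 and Tox, whose joint use is known from progenitor-like exhausted cells, were at 3.11%, 2.74% and 3.75% of Tcm cells, with products of 3.36%, 2.64% and 5.09%.

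Genes that work with these factors were read from lists set with earlier results known, as counts of those at least 2-fold apart between Treg and Tcm. Of 10 naive and memory genes, 0 were higher in Treg and 4 lower in the long-term experiment, with a median log2 difference of -0.90 against 0.10 over all genes, and 5 lower in T127 with a median of -1.48 against 0.17. Over all genes, 10% and 16.8% were higher in Treg and 8.72% and 10.9% lower. The T cell egress receptor S1pr1 was at 26.3 CPM in Treg and 181 CPM in Tcm in the long-term experiment and at 23.4 and 350 CPM in T127, and the repressor gene Bach2 at 8.76 and 21.3 CPM and at 12.6 and 93.8 CPM. Of 12 genes of chronic stimulation, 8 were higher in the long-term experiment (median 1.71) and 9 higher with 1 lower in T127 (median 2.53). The list holds Ctla4, also a known Treg gene, so its count does not by itself name a cell state. Ctla4 was at 1011 CPM in long-term Treg and 54.2 CPM in Tcm, and the inhibitory receptor genes Lag3 and Pdcd1 at 155 and 17.6 CPM and at 214 and 77.4 CPM. Of 8 regulatory genes other than the members, 5 and 7 were higher (medians 1.69 and 2.70), among them Tnfrsf4, which encodes the costimulatory receptor OX40, at 2508 and 177 CPM and at 3753 and 79.9 CPM. The follicular helper list, the partners of Bcl6, had 1 of 5 genes past the filter in each experiment, and this one was higher in Treg, Maf at 606 and 173 CPM and at 648 and 81.5 CPM, while the follicular homing receptor gene Cxcr5 had 0 UMIs in Treg and 3.68 and 1.54 CPM in Tcm.

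Between NK and CD8 Tn, most effector genes were higher in NK, as Eomes was. Of 10 effector genes, 9 passed the filter in the long-term experiment, with 7 higher in NK and 1 lower (median 1.49 against 0.09 over all genes, 13.5% of which were higher). All 10 passed in T22, with 8 higher and 1 lower (median 1.58 against 0.16, 8.2% higher). The perforin gene Prf1 was at 1662 and 113 CPM and at 473 and 74.1 CPM, while the chemokine receptor gene Cxcr6 was lower in long-term NK, at 62.9 and 282 CPM. Of the naive and memory genes 0 were higher and 4 and 3 lower, where 8.2% and 2.9% of all genes were lower, among them Ccr7, a lymph node homing receptor that was used to name CD8 Tn, at 13.9 and 262 CPM and at 13.9 and 195 CPM.

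Between T22 and long-term Tcm, the naive and memory list had 2 genes at least 2-fold higher and 4 lower, where 12.9% of all genes were higher and 4.26% lower. Among the lower genes, Ccr7 was at 73.1 CPM in T22 and 212 CPM in the long-term experiment and the quiescence factor Klf2 at 236 and 780 CPM. Of the 8 type 17 genes, all of which passed the filter, 4 were at least 2-fold higher in T22 (median 1.00 against 0.24 over all genes), with Zbtb16, the factor of innate-like T cells, at 61.9 and 9.80 CPM and Rora at 574 and 184 CPM. Against T127 Tcm, 6 of the 9 naive and memory genes that passed the filter were lower in T22 and 0 higher (median -1.78 against -0.05 over all genes), and 8 of 8 type 17 genes were higher, where 8.49% of all genes were lower and 8.01% higher, with the cytokine gene Il17a at 148 CPM in T22 and 0 UMIs in T127. The summed level of 4 gamma delta marker genes in Tcm was 612 CPM in T22 (pools 538 to 644) and 360 CPM in T127 (107 to 540), with Trdc, 1 of them, at 129 and 241 CPM. What mix of cells the Tcm label held in each experiment was not tested.

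By the profile of log2(CPM + 1) over 52 combinations of label and experiment, each member was set beside 11024 other genes by Pearson correlation, with no test because labels share libraries and cells. Tbx21 was closest to Klrc1 (0.985), Klrc2 (0.973) and Fasl (0.972), and Eomes to Cd160 (0.978), Samd3 (0.976) and Klrc2 (0.970). Tcf7 was closest to Gm20069 (0.898), Samd3 (0.895) and Txk (0.891), and Lef1 to Gimap1os (0.922), Gimap7 (0.916) and Lck (0.913). Tox was closest to Bcl11b (0.910), Foxp3 to Izumo1r (0.911), Ikzf2 to Gm42372 (0.849) and Il7r to Cd69 (0.932). The loosest was Bcl6, whose nearest profile was Rab43 (0.80), followed by Hps5 (0.795) and Mapk14 (0.775).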

How the data were processed

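Single cells of 16 pools of dissociated tumors were captured with 10x Genomics 3′ v3.1 chemistry. The authors deposited raw UMI counts per gene and cell, made with Cell Ranger 6.0.0 against GRCm38 with intronic reads included, together with the cell labels from their filtering, doublet removal and clustering. The methods give a minimum of 1000 genes per cell and the paper's reporting summary a lower one. Of 53946 deposited cells, 8635 had fewer than 1000 genes. Pool totals were 34755906 to 55600377 UMIs over these cells. Per barcode shared among the long-term pools the deepest copy was kept. Counts were summed per label and experiment and divided by all UMIs of the label (CPM). Intervals were exact at 95% (Poisson for levels, Clopper-Pearson for shares, conditional binomial for ratios). Comparisons over all genes used log2(CPM + 1), a 2-fold threshold, a minimum of 5 CPM in either class and labels with at least 50 cells. The members and the gene lists were chosen with earlier results of these data known. The splits by Foxp3, by coreceptor and by the number of genes, and the leaving out of cells with macrophage markers, were chosen after seeing the data. Named genes were the 9 members, list genes chosen as examples after their values were seen, and for each member the closest 3 profiles among genes reaching 20 CPM. Leaving out pools, thinning to 1000 or 3000 UMIs, a pseudocount of 10, denominators without mitochondrial and ribosomal genes and the unresolved barcodes were tried as alternatives. The fold comparison with macrophages was tested on simulated data with genes changed by 4-fold. It recovered 100% of these in long-term Tcm (8578 genes), long-term Treg (8800 genes) and T127 Treg (9341 genes), and called 0.0239%, 8.08% and 5.73% of unchanged genes. The changed genes were at 20 CPM or more in macrophages, and only counting noise was added. Most of the 9 members lie below that level in macrophages, so the recovery does not speak to them. Python 3.11.15 with numpy 2.4.6, scipy 1.17.1, pandas 2.3.3 and matplotlib 3.10.9 was used.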

Additional observations from a re-analysis of the deposited data

Results flagged for a closer look

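Of 90 groups of 4 to 8 pools tested for a distant pool, 5 held one, and chance alone flags about 5% of groups. Eomes in long-term CD8 Tn was at 349 CPM in pool 2, which had 2 such cells, with the other pools at 0 to 128 CPM. Tcf7 in long-term NK was at 213 CPM in pool 7 (26 cells), with the others at 61.6 to 121 CPM. Tcf7 in T22 Tprf was at 128 CPM in pool 1, with the others at 100.3 to 105 CPM. Eomes in T22 NK was lowest in pool 1, at 352 CPM, with the others at 382 to 386 CPM. Ikzf2 in T127 Tcm was at 358 CPM in pool 4 (62 cells), with the others at 199 to 209 CPM.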

How the results depend on the processing

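The counts of members at least 2-fold above macrophages stayed within 1.5 times under every alternative run. Leaving single pools aside, 2 ratios between labels moved by more than 1 SD of the log2 ratio over pools: the log2 ratio of Bcl6 in Tcm to macrophages in T22 was -1.20 with a pseudocount of 10 CPM in place of -1.90, and that of Foxp3 in Treg to Tcm in T127 was 5.92 among cells with at least 1000 genes in place of 4.59, with 5 Foxp3 UMIs left in Tcm. Leaving out 1 pool moved the log2 ratio of Bcl6 in T127 Tcm to macrophages from -0.42 to 0.32 (0.02 with all pools), so it had no stable sign, and that of Tcf7 in T127 Tcm to Treg from 4.94 to 7.02 (5.33 with all pools), which is within 1 SD over those pools but over 1.5 times. The log2 ratio of Eomes in Treg, T127 to long-term, was 2.53 without cells holding macrophage marker UMIs and -2.17 with them, on 2 T127 and 9 long-term UMIs at the start. Denominators without mitochondrial and ribosomal protein genes moved 71 of 117 levels by more than 1 SD over pools, for example Tcf7 in long-term Tcm from 274 to 416 CPM and Il7r from 825 to 1252 CPM. Among cells with at least 1000 genes, Lef1 in long-term Tcm went from 241 to 105 CPM. Ikzf2 in long-term CD8 Tn was at 14.5 CPM without pool 8. The causes were not tested. Shares of cells with a UMI moved with the depth of thinning. No paired analysis was possible because no test was run between experiments, and nothing ties same-numbered pools of different experiments. Ratios between labels are given within pools as well.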

Other observations

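The long-term NK label was not uniform in Il7r, a comparison of pools made after the values were seen. Pools 1 to 4 (138 cells) held Il7r at 31.0 CPM, with single pools from 20.5 to 39.9 CPM, and pools 5 to 8 (143 cells) held 153 CPM, from 108 to 222 CPM. The type 17 cytokine gene Il17a was at 1.11 CPM (1 UMI) and 156 CPM in the same pools, with single pools of 5 to 8 from 0 to 461 CPM, and the T cell receptor component gene Cd3e at 39.8 CPM (14.2 to 79.8) and 151 CPM (76.8 to 313), while the NK receptor gene Ncr1 was at 1055 CPM (856 to 1189) and 837 CPM (738 to 1054). Klrd1, another NK marker gene, was at 767 CPM (673 to 845) and 653 CPM (605 to 719). The gamma delta marker gene Trdc was alike in both sets of pools, at 217 CPM (184 to 251) and 213 CPM (187 to 294). Eomes was at 179 CPM in pools 1 to 4 (171 to 185) and 230 CPM in pools 5 to 8 (200 to 241). Il7r in Tcm went the same way, at 697 CPM (651 to 734) and 884 CPM (809 to 959). Long-term pools 1, 2 and 3 were also those that shared many barcodes, and whether this bears on these contrasts was not tested.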
